A study of Mus musculus with 4 samples.

Results

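Cadherins and protocadherins made up 54 of the 14924 genes measured in lenses of *S100A4*−/− and wild type (WT) mice. Membership was defined by the name of a gene, and took in those whose identifier carries, in the GENCODE M21 annotation, the symbol of a numbered cadherin, of a protocadherin, or of a Fat, Dachsous (*Dchs*) or *Celsr* gene. The classical *Cdh1*, *Cdh2* and *Cdh5* were left out by that choice. The 54 members were 13 cadherins, 10 protocadherins outside the gene clusters, 7 Fat, Dachsous and *Celsr* genes and 24 protocadherins of the α, β and γ clusters. Another 45 genes of the annotation carry such names and were not analysed here, among them 13 genes of the α cluster, 21 of the γ cluster and 7 cadherins.

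The *S100A4*−/− mice are a null line kept on a C57BL/6J background, and the controls were their WT littermates. RNA came from lenses at postnatal day 30, an age of 1 month, in 2 libraries per genotype, each a pool of 6 to 12 lenses and described as a biological replicate. The sexes of the mice in each pool are not given in the sources used here. Whole lenses hold epithelium and fibers together, and in such bulk RNA fewer cells of a type cannot be told apart from less RNA per cell. Reads on genes totalled 81602367 and 74108017 for *S100A4*−/− libraries 1 and 2, and 70253985 and 68038158 for WT libraries 1 and 2. Normalized values are read counts per gene over 1 size factor per library, which made 1 read worth 0.856 and 1.01 in *S100A4*−/− and 1.04 and 1.09 in WT. The targeted gene, *S100a4*, had values of 14.6 and 18.2 in *S100A4*−/− and of 14420 and 14385 in WT, so each library matched its label. The lens gene *Cryaa*, which encodes αA-crystallin, was abundant in all 4 libraries, at 1.26e+07 ± 9.48e+05 (SD, n = 2 libraries) in *S100A4*−/− and 1.32e+07 ± 1.91e+05 (SD, n = 2) in WT.

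Cadherins are calcium-binding adhesion proteins that join neighbouring cells through repeated domains outside the membrane. Classical cadherins hold cell junctions together and bind catenins inside the cell, and the type II members are known for sorting neurons and mesenchymal cells. Protocadherins bind mostly like with like and mark surfaces of neurons, the clustered ones through a choice of many variants, while Fat, Dachsous and *Celsr* proteins orient cells within a sheet.

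In WT lenses the level of the members, taken as the normalized value per kilobase of exon, spanned more than 3 orders of magnitude. *Fat1*, a giant cadherin that organises actin at cell contacts, was the highest, at 1567 and 1628 per kilobase in the WT libraries, which is the 96.4th percentile of all named genes. The γ cluster entry followed at 636 and 640 per kilobase. *Celsr2* stood at 538 and 558 and *Celsr1* at 419 and 416 per kilobase, and both are planar polarity cadherins with 7-pass membrane anchors. *Cdh4*, the R-cadherin of retina and brain, was the highest of the 13 cadherins, at 242 and 252 per kilobase. *Fat4* came sixth, at 160 and 176 per kilobase, and *Pcdh7* seventh, at 98.8 and 101. The WT libraries of each of these genes lay wholly above those of the next in the order. Lower down, neighbours mostly overlapped, and from *Pcdhb7*, in place 22, to *Pcdh20*, in place 52, each gene's WT libraries overlapped those of the next. At the foot were *Cdh6* at 0.477 per kilobase, on 3 and 5 reads, and *Cdh8* with 0 reads in both WT libraries, which is below the 3 reads taken as the limit of detection (a value of 3.13 and 3.28). That limit and all counting intervals cover counting error only.

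**Figure D1:**
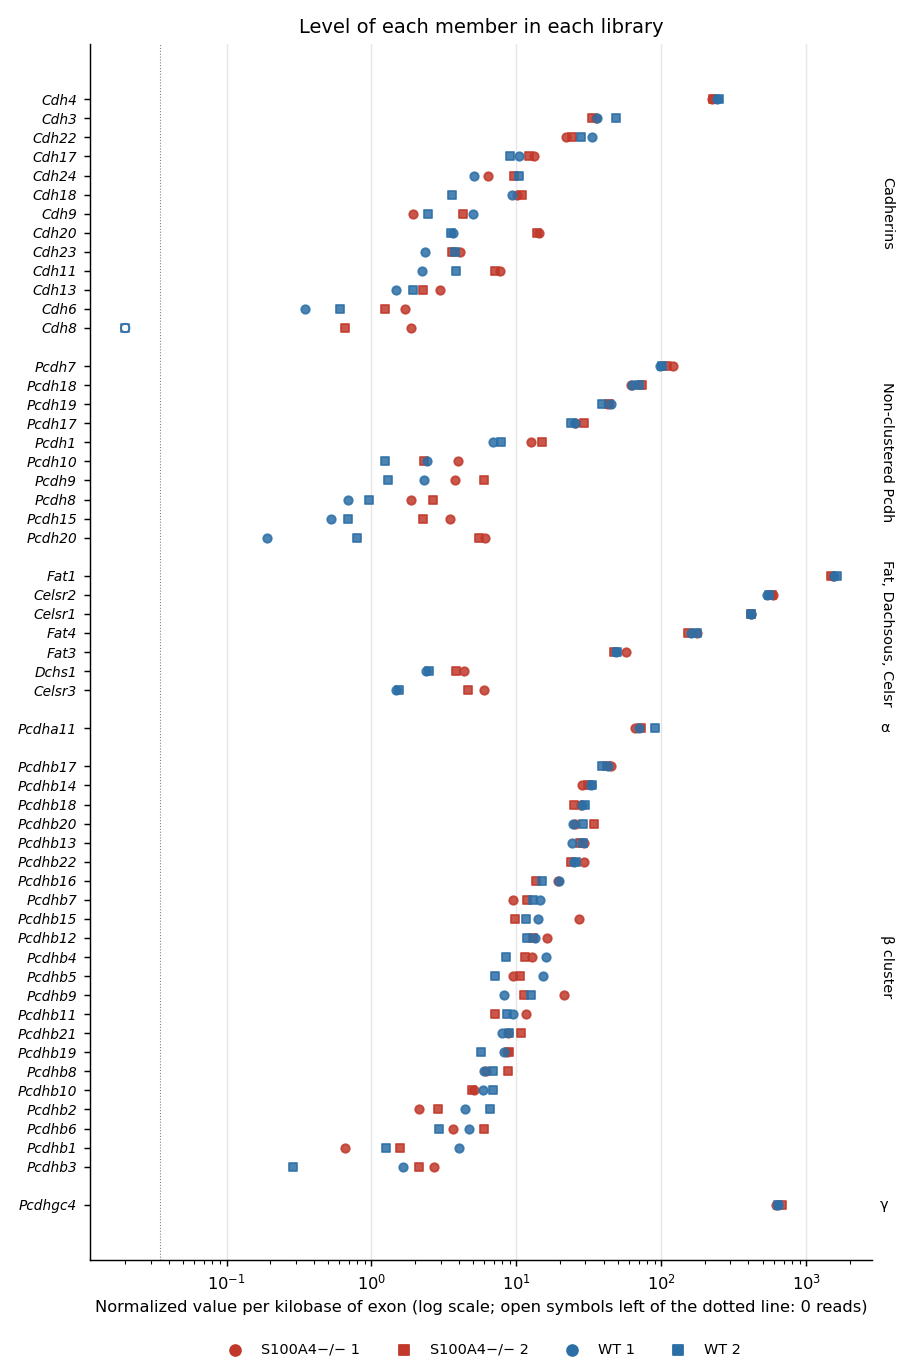
Normalized value per kilobase of exon (log axis) of the 54 members in the 2 S100A4−/− libraries (red) and the 2 WT libraries (blue), by group and by WT level. Fat1 is highest at 1598 per kilobase in WT, Cdh8 has 0 reads in both WT libraries, and the symbols part mainly among genes under 10 per kilobase.

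Lenses of the 2 genotypes were compared over all 14780 genes that had a value of at least 10 in any library, with limma on log2(value + 1), a scale on which folds of scarce genes come out too small. All 54 members passed that filter, 5 of them through the *S100A4*−/− libraries only and 2 through the WT libraries only. In all, 5 members were higher in *S100A4*−/− lenses by at least 2-fold at an adjusted p of at most 0.05, namely *Pcdh15*, *Cdh20*, *Celsr3*, *Pcdh20* and *Cdh11*. Of these, *Pcdh20* passed the filter through the *S100A4*−/− libraries only. Limma without a variance trend called 1 member higher, *Cdh20*. The calls were also lost with *S100A4*−/− library 1 left out, as given with each gene below. The called genes were 9.26% of the members, where 3.65% of all genes tested were higher. There were 0 members lower, where 0.0744% of all genes were lower. On recovered reads, DESeq2 called 4 members higher and 0 lower (all genes: 2.85% and 0.0406%), and edgeR called 6 and 0 (all genes: 3.74% and 0.0744%). At an unadjusted p under 0.05 in limma, 13 members were higher and 1, *Fat1*, was lower, beside 11.0% and 6.71% of all genes. Rod markers were higher in the same libraries, 10 of 10, as were other eye cell markers given further on, and their part in these results was not tested.

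The 5 higher genes were all scarce in the lens. Among the 29 members with a mean value under 50, 5 were higher, which is 17.2%, beside 7.50% of all genes in that range. Among the 25 members with a mean of at least 50, 0 were higher, beside 2.48% of all genes. Fold alone, with no test, put 10 members at 2-fold or more above WT and 1 at 2-fold or more below, beside 6.77% and 0.947% of all genes. Of these 10, 5 (*Pcdhb3*, *Cdh6*, *Cdh8*, *Pcdh8* and *Pcdh20*) had passed the filter through the *S100A4*−/− libraries only, and the 1 below, *Pcdhb2*, through the WT libraries only, so these counts are no support for a difference. An adjusted p of at most 0.05 with no fold threshold was reached by 6 members above WT and 0 below, beside 5.62% and 1.33% of all genes. Both *S100A4*−/− libraries lay above both WT libraries in 19 members and below them in 9, beside 23.7% and 23.2% of all genes. The 5 members that passed the filter through the *S100A4*−/− libraries only are among the 19, and *Pcdhb2* is among the 9. These counts, too, are no support for a difference. The median log2 fold change was 0.13 over the members and −0.0052 over all genes.

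**Figure D2:**
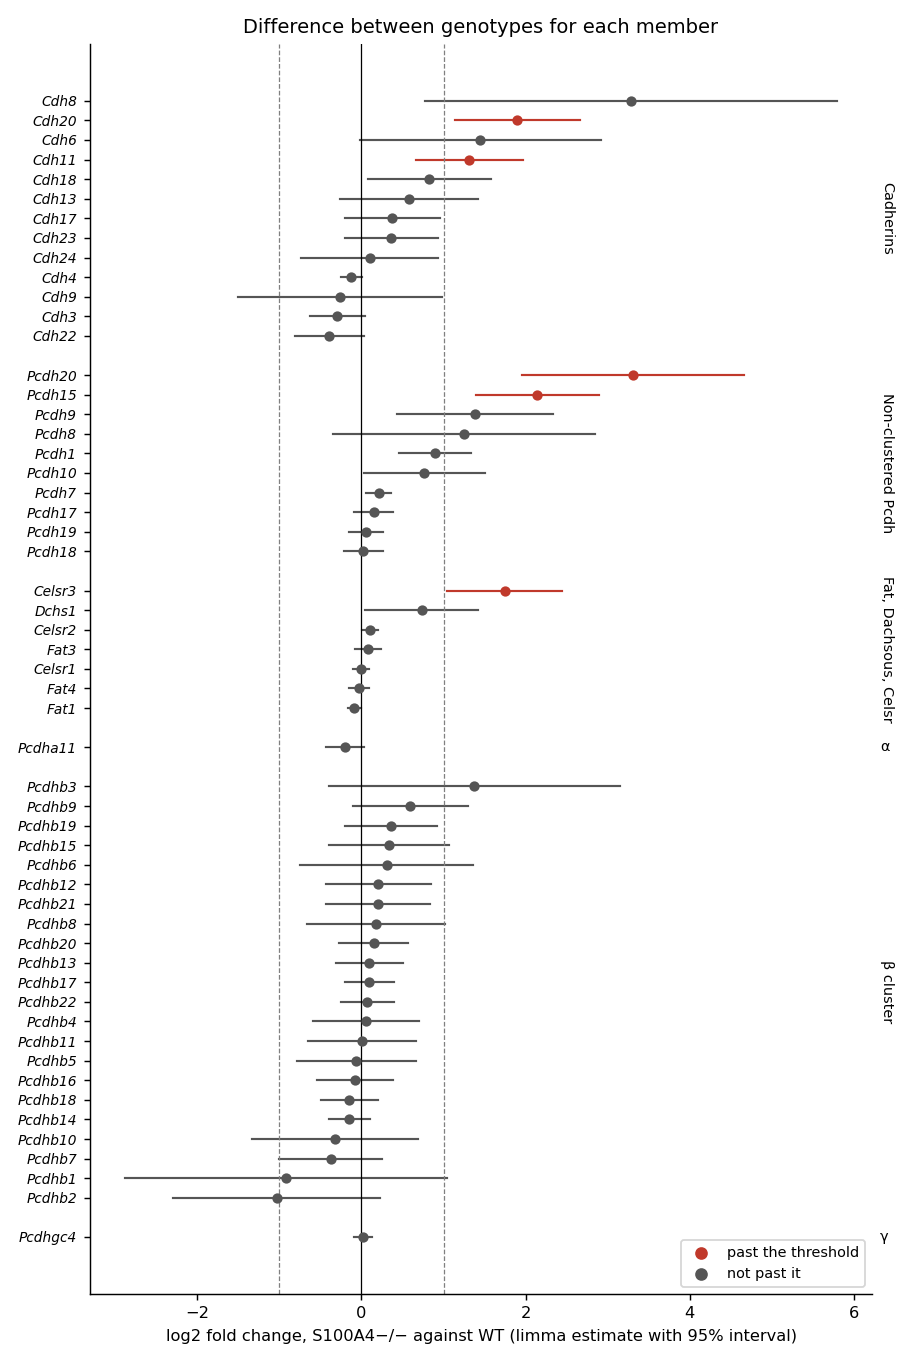
Log2 fold change of each member, S100A4−/− against WT, from limma on log2(value + 1), with its 95% interval, by group; dashed lines mark 2-fold. The 5 genes past the threshold (red) lie between 1.32 and 3.31, and every clustered protocadherin has an interval that includes 0.

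Type I cadherins join epithelial cells. The 2 within the choice, *Cdh4* and *Cdh3* (P-cadherin), did not pass the test, where 3.65% of all genes were higher and 0.0744% lower. *Cdh4* had values of 1638 and 1643 in *S100A4*−/− and of 1753 and 1828 in WT, a log2 fold change of −0.13 (standard error, SE, 0.06, limma adjusted p = 0.289). *Cdh3* had 155 and 145 against 159 and 214, a log2 fold change of −0.29 (SE 0.16, adjusted p = 0.364). The *S100A4*−/− libraries of both genes were below both WT libraries, a pattern that 23.2% of all genes showed. In WT, *Cdh3* stood at the 41.0th percentile of all named genes. Of the classical cadherins outside the choice, *Cdh1* had a log2 fold change of −0.16 (adjusted p = 0.104) and *Cdh2* one of −0.16 (adjusted p = 0.0332 in limma, 0.0827 in DESeq2 and 0.0564 in edgeR), both far from 2-fold. The endothelial *Cdh5* had one of 0.66 on few reads (adjusted p = 0.548).

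Of the 8 type II cadherins, 2 were higher in *S100A4*−/− lenses, beside 3.65% of all genes and 7.50% of those with a mean value under 50. *Cdh20* (ENSMUSG00000050840, GRCm38 chromosome 1, 104768529 to 104995481, plus strand), a cadherin of neural tissue, had values of 57.4 and 55.7 in *S100A4*−/− and of 14.6 and 14.2 in WT. Libraries of one genotype were nearly equal and the genotypes were far apart. The means were 56.6 ± 1.15 (SD, n = 2) and 14.4 ± 0.272 (SD, n = 2), a log2 fold change of 1.90 (SE 0.37, limma adjusted p = 0.000418). With 1 library left out at a time the log2 fold change ran from 1.88 to 1.92. The adjusted p rose to 0.116 without *S100A4*−/− library 1 and to 0.0891 without library 2, each in a fit where the lone library is assumed to vary like the others.

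*Cdh11* (ENSMUSG00000031673, chromosome 8, 102632095 to 102785642, minus strand), known from mesenchyme and bone, had values of 68.5 and 63.8 in *S100A4*−/− and of 19.8 and 33.9 in WT. Both *S100A4*−/− libraries were higher, while the WT libraries differed among themselves. The log2 fold change was 1.32 (SE 0.32, limma adjusted p = 0.00574), the smallest of the 5. This call was lost in several settings, with adjusted p = 0.0660 in DESeq2, 0.0507 after quantile normalization and 0.223 in limma without a variance trend. It was also lost without *S100A4*−/− library 1 (log2 fold change 1.26), without library 2 (1.37) and without WT library 1, where the log2 fold change fell to 0.94.

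The remaining type II cadherins did not pass the test. *Cdh8*, known from neuronal circuits, had 17 and 5 reads in *S100A4*−/− while both WT libraries had 0. Its mean value in *S100A4*−/− was 3.06 times a floor of 3 reads per WT library. That figure leaves out the spread between the *S100A4*−/− libraries and is no lower bound. The adjusted p of *Cdh8* was 0.117 in limma, 0.0617 in DESeq2 and 0.0228 in edgeR, so edgeR alone of the tools called it. *Cdh6* (K-cadherin) had 18 and 11 reads against 3 and 5, a ratio of rates of 3.15 (95% exact counting interval 1.40 to 7.97) and an adjusted p of 0.292. Both genes were higher in each *S100A4*−/− library than in either WT library, on very few reads, a pattern that 23.7% of all genes showed. Both had passed the filter through the *S100A4*−/− libraries only, so this separation is no support for a difference. *Cdh18* had values of 46.2 and 49.7 against 42.8 and 16.4 (log2 fold change 0.82, adjusted p = 0.218), a difference that rested on the second WT library (log2 fold change 0.16 without it). *Cdh22*, the most abundant of the type II cadherins in WT at 30.5 per kilobase, had 81.4 and 90.2 against 123 and 103 (log2 fold change −0.39, adjusted p = 0.325). *Cdh9* and *Cdh24* overlapped between genotypes, with log2 fold changes of −0.26 and 0.10.

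Of the 3 other cadherins, 0 passed the test, where 3.65% of all genes were higher. *Cdh23*, which joins *Pcdh15* in the tip links of hair cells, had values of 69.4 and 60.8 in *S100A4*−/− and of 39.7 and 63.5 in WT (log2 fold change 0.36, adjusted p = 0.543). The genotypes overlapped for *Cdh23*, unlike for *Pcdh15*. *Cdh17* (LI-cadherin) had 59.1 and 54.7 against 47.0 and 40.5 (log2 fold change 0.37, adjusted p = 0.543), and *Cdh13*, the cadherin anchored by a lipid, 33.4 and 25.3 against 16.7 and 21.9 (log2 fold change 0.58, adjusted p = 0.514). Each *S100A4*−/− library of these genes lay above both WT libraries, as it did in 23.7% of all genes, but neither gene passed the test.

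The protocadherins outside the clusters all had a log2 fold change above 0, beside 7215 of all 14780 genes tested. It ran from 0.03 for *Pcdh18* to 3.31 for *Pcdh20*, with a median of 0.83. The sign of *Pcdh18* turned with quantile normalization (−0.001). In 7 of the 10, both *S100A4*−/− libraries were above both WT libraries, beside 23.7% of all genes. Among these 7, *Pcdh8* and *Pcdh20* had passed the filter through the *S100A4*−/− libraries only. The counts of signs and of separated libraries are therefore no support for a difference. By the test, 2 of the 10 were higher, beside 3.65% of all genes. These 2, *Pcdh15* and *Pcdh20*, belong to neither the δ1 nor the δ2 group.

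*Pcdh15* (ENSMUSG00000052613, chromosome 10, 73099342 to 74649737, plus strand) encodes a tip link protein of hair cells that is also found in photoreceptors. It had values of 83.1 and 53.7 in *S100A4*−/− and of 12.5 and 16.4 in WT, on 97, 53, 12 and 15 reads. The *S100A4*−/− libraries differed by more than the WT libraries did, yet the lower of them was still well above WT. The means were 68.4 ± 20.8 (SD, n = 2) and 14.5 ± 2.75 (SD, n = 2), a log2 fold change of 2.14 (SE 0.37, limma adjusted p = 5.68e-05). DESeq2 gave an adjusted p of 0.000390. Without *S100A4*−/− library 1 the log2 fold change was 1.83 and the adjusted p 0.136, and with any other library left out it stayed past the threshold. Without a variance trend the adjusted p was 0.101.

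*Pcdh20* (ENSMUSG00000050505, chromosome 14, 88464743 to 88471396, minus strand) had a log2 fold change in limma close to that of *Cdh8* (3.31 and 3.28), and these were the 2 largest of the members on that scale. *S100A4*−/− lenses had 39 and 30 reads, against 1 and 4 in WT, values of 33.4 and 30.4 against 1.04 and 4.38. In WT the gene was at the limit of detection, and in *S100A4*−/− it was above it in both libraries. *Pcdh20* had passed the filter through the *S100A4*−/− libraries only. A value of at least 10 in 1 of them was thus a condition of being tested, and the contrast in presence is no support for a difference. The ratio of rates was 12.0 (95% exact counting interval 4.90 to 38.1), and the log2 fold change 3.31 (SE 0.67, limma adjusted p = 0.000579). Leaving out *S100A4*−/− library 1 or 2 gave log2 fold changes of 3.24 and 3.37 with adjusted p of 0.142 and 0.107, and without a variance trend the adjusted p was 0.140. The size rested on the few WT reads, since the log2 fold change was 2.61 without WT library 1 and 4.01 without WT library 2, both past the threshold.

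All 3 δ1 protocadherins lay higher in both *S100A4*−/− libraries than in either WT library, a pattern that 23.7% of all genes showed, and 0 reached the threshold. *Pcdh1*, an adhesion protein of epithelia, had values of 111 and 132 in *S100A4*−/− and of 60.6 and 69.0 in WT. Its log2 fold change of 0.90 (SE 0.22, limma adjusted p = 0.00485) passed the adjusted p but lay just under 2-fold, where *Cdh11* at 1.32 was the nearest of the called members. The adjusted p was 0.0587 in DESeq2, 0.122 in limma without a variance trend, and 0.138 and 0.246 without *S100A4*−/− library 1 or 2. *Pcdh9* had 25.7 and 40.5 against 15.7 and 8.76, a log2 fold change of 1.38 (SE 0.47, adjusted p = 0.0690). It passed without WT library 1 (log2 fold change 1.77, adjusted p = 0.0199) and did not without WT library 2 (1.00, adjusted p = 0.298), without *S100A4*−/− library 1 or 2 (adjusted p = 0.223 and 0.471) or in DESeq2 (adjusted p = 0.307). *Pcdh7*, the most abundant protocadherin outside the clusters, had 1287 and 1158 against 1047 and 1066, a log2 fold change of 0.21 (SE 0.07, adjusted p = 0.0824). Some of its exon sequence, 21.1%, is shared with a non-coding gene, *4932441J04Rik*.

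The 5 δ2 protocadherins, several of which recruit the actin-nucleating WAVE complex, included 0 that passed the test, beside 3.65% of all genes higher. *Pcdh8* had 10 and 12 reads against 3 and 4, a ratio of rates of 2.73 (95% exact counting interval 1.13 to 7.56) with an adjusted p of 0.435. *Pcdh10* overlapped between genotypes, at 62.5 and 36.5 against 38.6 and 19.7 (log2 fold change 0.77, adjusted p = 0.249). The other 3 were more abundant. *Pcdh17* had 331 and 380 against 330 and 311, *Pcdh18* 334 and 396 against 337 and 379, and the X-linked *Pcdh19* 449 and 455 against 469 and 405. Their log2 fold changes were 0.15 (95% interval −0.09 to 0.38), 0.03 (−0.21 to 0.26) and 0.05 (−0.16 to 0.26).

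**Figure D3:**
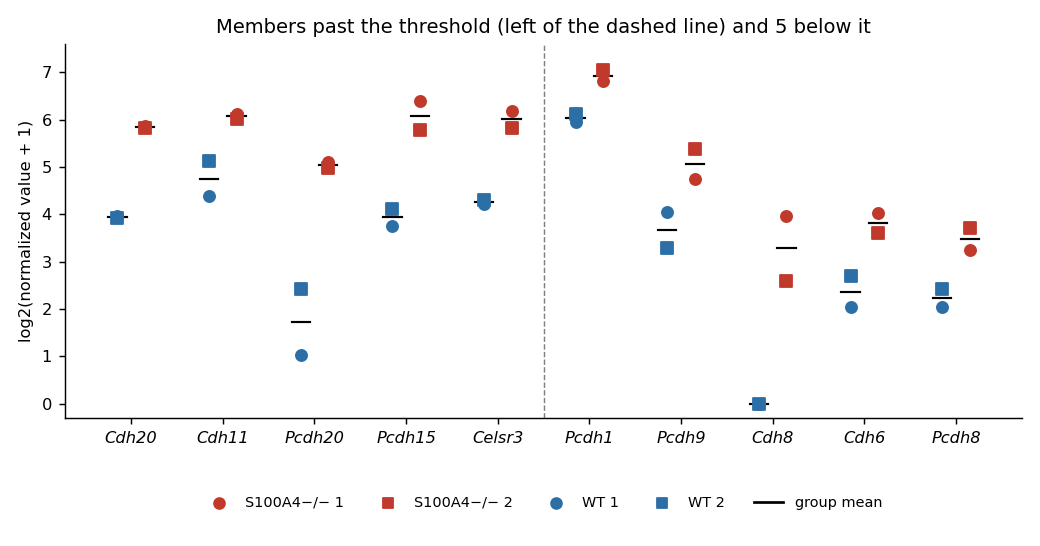
log2(normalized value + 1) of the 5 genes past the threshold (left of the dashed line) and of 5 that were not, in the 2 S100A4−/− libraries (red) and the 2 WT libraries (blue), with group means as bars. Both red symbols are above both blue symbols in each of the 10 genes, as in 23.7% of all genes. The genes shown were chosen with their values known. Pcdh20, Cdh8, Cdh6 and Pcdh8 passed the filter through the S100A4−/− libraries only, so the separation is no support for a difference. Cdh8 sits at 0 in both WT libraries.

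Among the planar polarity cadherins, *Celsr3* was higher in *S100A4*−/− lenses and its paralogs *Celsr1* and *Celsr2* were not called. *Celsr3* (ENSMUSG00000023473, chromosome 9, 108826320 to 108852969, plus strand), which guides axon tracts, had values of 71.9 and 55.7 in *S100A4*−/− and of 17.8 and 18.6 in WT. The WT libraries were nearly equal and both far below the *S100A4*−/− libraries. The means were 63.8 ± 11.4 (SD, n = 2) and 18.2 ± 0.610 (SD, n = 2), a log2 fold change of 1.75 (SE 0.35, limma adjusted p = 0.00046). Without *S100A4*−/− library 1 it was 1.57 (adjusted p = 0.155), without library 2 it was 1.93 (adjusted p = 0.0631), and without a variance trend the adjusted p was 0.0570. *Celsr2* had 6817 and 6742 against 6190 and 6424 (log2 fold change 0.10, 95% interval 0.01 to 0.20, adjusted p = 0.220). *Celsr1* had 4598 and 4547 against 4611 and 4577 (log2 fold change −0.01, 95% interval −0.11 to 0.09), and its sign turned with equal totals (0.02) and quantile normalization (0.04). Even when higher, *Celsr3* stayed scarce beside them, at 5.29 per kilobase in *S100A4*−/− against 589 for *Celsr2* and 415 for *Celsr1*.

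The Fat and Dachsous genes, of which *Fat4* and *Dchs1* form a receptor and ligand pair between cells, gave 0 calls among 4 members, beside 3.65% of all genes higher and 0.0744% lower. *Fat1* had values of 23895 and 23269 against 24532 and 25486, a log2 fold change of −0.08 (SE 0.04, limma adjusted p = 0.277), with both *S100A4*−/− libraries below both WT libraries. *Fat4* had 3025 and 2631 against 2753 and 3019, and *Fat3*, known from amacrine cell dendrites, 1218 and 1016 against 1042 and 1069. Both overlapped between genotypes, with log2 fold changes of −0.03 (95% interval −0.16 to 0.09) and 0.08 (−0.08 to 0.23). *Dchs1*, the ligand, was scarce at 48.0 and 42.6 against 26.1 and 27.4, a log2 fold change of 0.74 (SE 0.34, adjusted p = 0.238). The receptor *Fat4* thus stood at 168 per kilobase in WT and its ligand *Dchs1* at 2.42.

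RefSeq promoter windows of GRCm38.p6, running from 250 bases before to 50 after a gene's start, were matched by symbol for 22 of the 54 members, in 23 windows. They are shown for 4 of the 5 higher genes because these were higher in the same libraries, and because their content of CG dinucleotides, which marks promoters of many widely used genes, can be read off directly. Each line gives the 250 bases upstream of the start, 5′ to 3′ on the gene's own strand, with each CG in capitals. They lie at chr1:104768270-104768519 (plus strand) for *Cdh20*, at chr9:108825795-108826044 (plus strand) for *Celsr3*, at chr10:73821617-73821866 (plus strand) for *Pcdh15* and at chr14:88471397-88471646 (minus strand) for *Pcdh20*. The RefSeq start of *Pcdh15* lies inside the span GENCODE gives the gene and not at its 5′ end.
Cdh20: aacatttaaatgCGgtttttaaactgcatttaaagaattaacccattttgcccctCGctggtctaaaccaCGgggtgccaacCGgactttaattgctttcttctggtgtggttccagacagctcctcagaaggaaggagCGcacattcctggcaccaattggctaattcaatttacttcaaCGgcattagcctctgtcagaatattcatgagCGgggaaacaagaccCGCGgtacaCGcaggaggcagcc
Celsr3: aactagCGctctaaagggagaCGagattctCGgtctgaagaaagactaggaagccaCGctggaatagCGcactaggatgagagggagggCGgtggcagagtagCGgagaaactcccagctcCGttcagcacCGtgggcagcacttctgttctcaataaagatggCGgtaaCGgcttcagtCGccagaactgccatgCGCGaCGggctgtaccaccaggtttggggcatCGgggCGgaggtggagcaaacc
Pcdh15: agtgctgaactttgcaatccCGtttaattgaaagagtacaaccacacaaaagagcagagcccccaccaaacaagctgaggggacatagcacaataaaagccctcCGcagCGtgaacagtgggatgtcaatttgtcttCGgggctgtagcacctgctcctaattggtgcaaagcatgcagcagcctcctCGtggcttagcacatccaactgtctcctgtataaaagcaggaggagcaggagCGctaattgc
Pcdh20: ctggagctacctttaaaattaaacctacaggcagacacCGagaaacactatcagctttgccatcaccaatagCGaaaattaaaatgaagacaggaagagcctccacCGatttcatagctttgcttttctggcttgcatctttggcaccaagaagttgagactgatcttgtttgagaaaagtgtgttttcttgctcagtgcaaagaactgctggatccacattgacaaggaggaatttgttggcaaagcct

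These 4 sequences were unlike each other in CG content. The whole window of 300 bases held 25 CG in *Celsr3*, 18 in *Cdh20*, 8 in *Pcdh15* and 4 in *Pcdh20*. The median was 7 (quartiles 3 and 20) over all 32817 windows and 18 over the members' windows that were kept. The letters TAATCC, or GGATTA on the other strand, which is the core bound by the photoreceptor factors CRX and OTX2, were in 0 of the 22 members' windows and in 7.06% of all windows. That says only that these letters are not in these windows.

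The clustered protocadherins were described apart, since they lie side by side on mouse chromosome 18 and their genes are read in a different way. Each α or γ transcript joins a variable first exon to constant exons shared by its whole cluster, whereas a β gene is a single exon. Of the 24 clustered members 0 were higher or lower, beside 3.65% and 0.0744% of all genes, and 0 reached an unadjusted p under 0.05 in limma, beside 11.0% higher and 6.71% lower of all genes. DESeq2 and edgeR called 0 of them as well. Both *S100A4*−/− libraries were above both WT libraries in 2 and below them in 5, beside 23.7% and 23.2% of all genes. Among these, *Pcdhb3* had passed the filter through the *S100A4*−/− libraries only and *Pcdhb2* through the WT libraries only. The median log2 fold change was 0.06, beside 0.83 for the 10 protocadherins outside the clusters, and the difference between these groups was not tested.

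The α and γ clusters were each represented by 1 entry. The α entry, which M21 names *Pcdha11* (ENSMUSG00000007440), shares 53.4% of its exon bases with 13 other genes of the annotation. The γ entry, named *Pcdhgc4* (ENSMUSG00000023036), shares 37.9% with 25 others. How reads of shared exons were divided is uncertain, so each entry is taken as a reading of its cluster and not of 1 variant. The γ entry had values of 3466 and 3791 in *S100A4*−/− and of 3561 and 3584 in WT, a log2 fold change of 0.02 (95% interval −0.09 to 0.13). Here the genotypes overlapped. The α entry had 355 and 387 against 377 and 482, a log2 fold change of −0.20 (95% interval −0.43 to 0.03, limma adjusted p = 0.370). Its genotypes overlapped too.

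The 22 β genes lie in order on chromosome 18 between 37264938 and 37524479 (GRCm38, plus strand). Their summed value was 1619 and 1505 in *S100A4*−/− and 1562 and 1490 in WT, a ratio of 1.02 between the genotype means. Log2 fold changes ran from −1.03 for *Pcdhb2* to 1.38 for *Pcdhb3*, and 14 were above 0 and 8 below. Both extremes rested on few reads. *Pcdhb3* had 12 and 8 reads against 6 and 1 (ratio of rates 2.48, 95% exact counting interval 1.01 to 6.95, adjusted p = 0.439), and *Pcdhb2* 7 and 8 against 12 and 17 (adjusted p = 0.412). *Pcdhb1*, the first gene, had 2 and 4 reads against 10 and 3 (adjusted p = 0.690). Since only reads of a single locus were counted and the β genes are near copies of each other, the values of single β genes are uncertain. *Pcdhb12* also shares 63.5% of its exon with *Gm37446*.

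Levels tended to rise along the β cluster in every library. *Pcdhb17* was the highest in WT, at 42.6 and 38.8 per kilobase of exon, followed by *Pcdhb14* at 32.5 and 33.5, and *Pcdhb18* at a mean of 29.3. The first 11 genes had a median of 6.45 per kilobase in WT and the last 11 a median of 25.2. In the *S100A4*−/− libraries the medians were 7.44 and 26.5. All 5 of the highest were among the last 11, and 7 of the last 11 exceeded the highest of the first 11, *Pcdhb7* at 13.9. Spearman's rho between place and WT level was 0.63 across the 22 genes, which share libraries and similar sequence and are no replicates. It was between 0.60 and 0.66 in single libraries, 0.70 without division by length and 0.73 per kilobase of coding sequence. The exon length of the genes itself rose with place (rho 0.59). Some late genes were exceptions, such as *Pcdhb19* at 6.93 and *Pcdhb21* at 8.42 per kilobase in WT.

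**Figure D4:**
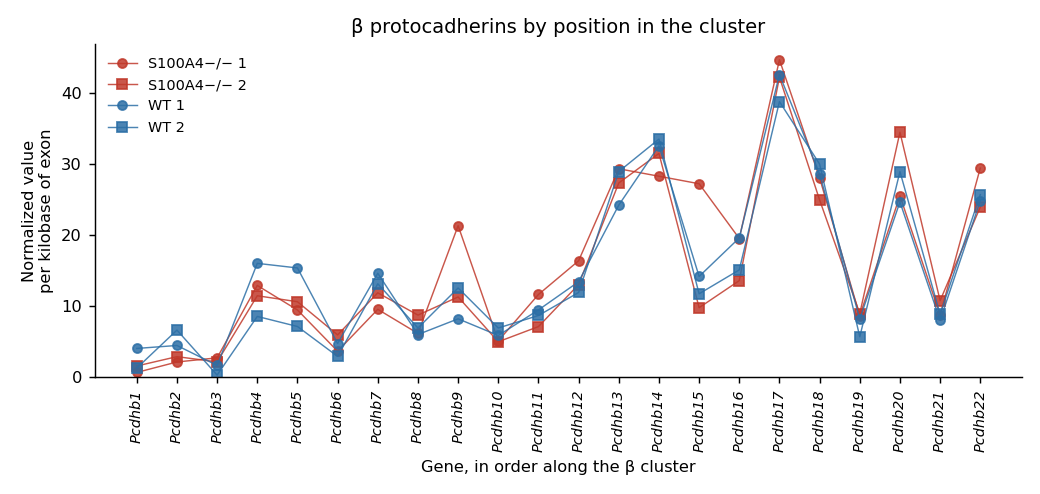
Normalized value per kilobase of exon of the 22 β protocadherins, in their order along the cluster, in the 2 S100A4−/− libraries (red) and the 2 WT libraries (blue). The 4 lines follow a similar course, from at most 16.0 per kilobase over Pcdhb1 to Pcdhb8 to a peak of 38.8 to 44.7 at Pcdhb17, with the first S100A4−/− library apart at Pcdhb9 and Pcdhb15 and the first WT library at Pcdhb4 and Pcdhb5.

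Replicates set the limit for single β genes. *Pcdhb15* had values of 76.2 and 27.4 in the *S100A4*−/− libraries, with 39.7 and 32.8 in WT, and *Pcdhb9* had 65.1 and 34.5 against 25.1 and 38.3. In both genes the first *S100A4*−/− library stood apart, while the second lay below both WT libraries for *Pcdhb15* and between them for *Pcdhb9*. Their log2 fold changes of 0.33 and 0.60 had adjusted p of 0.698 and 0.391.

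Genes that work with these proteins were described from lists of partners. Of 11 catenins and related junction proteins, which tie cadherins to actin, 0 passed the threshold, beside 3.65% of all genes higher and 0.0744% lower. *Arvcf* was the most abundant per kilobase in WT (log2 fold change −0.11), and *Ctnnb1* (β-catenin) had a log2 fold change of −0.0045. *Vcl* (vinculin) had values of 830 and 817 against 601 and 614, a log2 fold change of 0.44 that passed the adjusted p (0.000272, limma) but not 2-fold.

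Among the reported partners of the tip link, log2 fold changes ran from −1.01 for the hair cell channel gene *Tmc1* (21.4 and 16.2 against 36.5 and 40.5, limma adjusted p = 0.130) to 0.44 for *Cib2* (152 and 121 against 104 and 95.3, adjusted p = 0.199), which encodes a calcium-binding partner of that channel. Further lists held 12 planar polarity genes, 9 subunits of the WAVE complex, 12 regulators of the protocadherin clusters and 8 genes of cadherin shedding. Of these genes 0 were higher and 0 lower, beside 3.65% and 0.0744% of all genes. The widest range among the latter 4 lists was that of planar polarity, from −0.13 to 0.38 on the log2 scale. *Cyfip2*, a WAVE subunit, had 3803 and 4024 against 4486 and 4689, a log2 fold change of −0.23 that passed the adjusted p (0.00226, limma) but not 2-fold. *Ctcf*, which loops promoters of the clusters to their enhancers, had a log2 fold change of −0.05 and the cohesin subunit *Rad21* one of −0.05 (adjusted p = 0.758 and 0.738).

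Marker genes of other eye cells were higher in the same libraries as the 5 members. Each limma count below stands beside 3.65% of all genes higher. In limma all 10 rod markers were higher, with a summed value of 9701 and 9430 in *S100A4*−/− and of 2358 and 2469 in WT, and *Gnat1* (rod transducin) was the most abundant of them per kilobase in WT. The most abundant gene by that measure is the one named with each further list. Of 8 cone markers 5 were higher (sums 307 and 331 against 127 and 135, led by *Opn1mw*). Of 10 analysed amacrine and ganglion cell markers 7 were higher (2942 and 2942 against 2034 and 2102, led by *Tfap2a*). Of 6 Müller glia markers 3 were higher (85186 and 86915 against 80483 and 80880, led by *Dkk3*). Most of that sum was *Dkk3* (log2 fold change 0.03), while the 3 higher, *Glul*, *Slc1a3* and *Rlbp1*, had log2 fold changes of 1.55, 1.51 and 1.40. Of 6 bipolar cell markers 1 was higher (2889 and 2691 against 2253 and 2206, led by *Prkca*). Outside the neural retina, 5 of 6 pigment cell markers were higher (1672 and 1737 against 682 and 754, led by *Oca2*), 2 of 5 of the pigment epithelium (851 and 808 against 458 and 500, led by *Ttr*) and 6 of 8 of the ciliary body (9819 and 9585 against 5308 and 5610, led by *Aqp1*). Macrophage markers were higher in 4 of 7 (304 and 257 against 105 and 89.8, led by *C1qa*) and endothelial markers in 1 of 6 (516 and 496 against 371 and 448, led by *Egfl7*). DESeq2 called fewer in 5 of these lists, with 0 cone markers, 0 of bipolar cells, 6 of amacrine and ganglion cells, 1 of the pigment epithelium and 1 of macrophages, and the same number in the other 5.

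Markers of the lens itself did not move in this way. Of 8 lens fiber markers and 5 lens epithelium markers 0 were higher and 0 lower, beside 3.65% and 0.0744% of all genes. Log2 fold changes of the fiber markers were below 0 in 6 and above 0 in 2. The lowest was that of *Mip*, at −0.12 (adjusted p = 0.124 in limma, 0.0352 in DESeq2 and 0.0290 in edgeR), far from 2-fold. The summed values were 1.67e+07 and 1.83e+07 against 1.82e+07 and 1.85e+07 for fibers (led by *Cryaa*). For epithelium (led by *Foxe3*) they were 23051 and 23457 against 23474 and 23678. Of 3 analysed markers of cornea and conjunctiva 2 were tested and 0 passed (summed values 1559 and 1716 against 1624 and 1622). Most of that sum was *Aldh3a1*, while the keratin genes *Krt13* (22.3 and 27.4 against 18.8 and 6.57, log2 fold change 1.07, adjusted p = 0.269) and *Krt12* (9.42 and 6.08 against 5.22 and 0, too low to be tested) had both *S100A4*−/− libraries above both WT libraries. Of all genes, 23.7% showed that pattern. Every analysed marker had reads in at least 1 WT library, so no list was at 0 in WT. Whether RNA of these other cells had a part in the values of *Pcdh15*, *Pcdh20*, *Cdh20*, *Cdh11* and *Celsr3* was not tested.

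**Figure D5:**
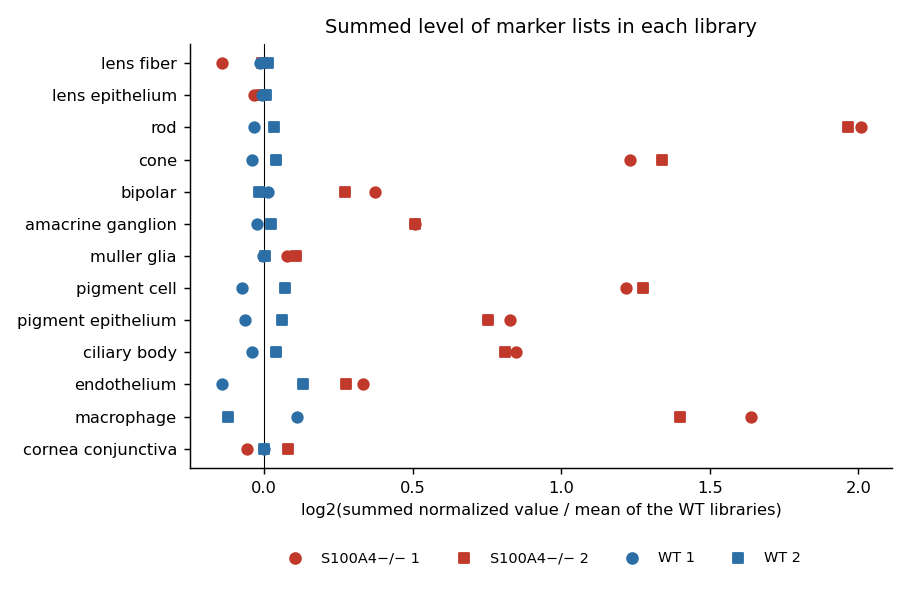
Summed normalized value of each marker list in each library, as log2 of its ratio to the mean of the 2 WT libraries; red symbols are S100A4−/− and blue symbols WT. Rod markers lie at 4.02 and 3.91 times the WT mean in the S100A4−/− libraries, and the 2 lens lists lie between 0.907 and 0.996 times it.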

How the data were processed

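P30 mouse lens RNA was read by single-end, stranded sequencing of mRNA in 4 libraries, 2 per genotype, all sequenced in 1 lane. Groups and replicate numbers came from the sample labels, age and pool size from the study's methods. Per the study's methods, the authors used Trim Galore for trimming, STAR for mapping to GRCm38 (v73) and HTSeq for counting single-locus reads, then dropped genes under 10 reads in all libraries and normalized with DESeq2. Versions of these tools are not given in the sources used here. The deposited signal values are these counts divided by 1 size factor per library, not by gene length. Read counts were recovered by division, since 100% of a library's values came out as whole reads (tolerance 0.05).

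Symbols, exon lengths (union of exons) and GRCm38 coordinates were taken from GENCODE M21, which matched 14782 identifiers. Genotypes were compared with limma (eBayes with a trend) on log2(value + 1), with Benjamini-Hochberg adjustment over all 14780 genes tested, and called at 2-fold or more and an adjusted p of at most 0.05. Alternatives were edgeR's quasi-likelihood and DESeq2's Wald test on the recovered reads, other pseudocounts, filters and scalings, a replicate block and the omission of single libraries. The scripts were tested on simulated data in which all changed genes had a mean value of at least 50. The 5 called members had means under 50, a range that the simulation did not cover. Intervals of read ratios are exact (Clopper-Pearson). P-values measure the spread between pools only.

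Members, partner lists and marker lists were chosen with earlier results of these data known. The genes named in detail were *S100a4*, members past the threshold, the 3 highest per group in WT, those at 2-fold or more that missed the adjusted p, those with at most 3 reads in both libraries of a group and those nearest the fold threshold. Other members, and other genes of the lists, were named after their values were seen. A gene of the list of tip link partners is not reported here, so no count of calls is given for that list. Tools were matplotlib 3.10.9, scipy 1.17.1, pandas 2.3.3 and numpy 2.4.6 in Python 3.11.15, and DESeq2 1.42.0, edgeR 4.0.16 and limma 3.58.1 in R 4.3.3.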

Additional observations from a re-analysis of the deposited data

How the results depend on the processing

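The 5 calls rested on few reads and on 2 libraries per genotype. All 5 remained with TMM factors, equal totals, other pseudocounts and no filter on low values, each of which gave 5 members higher. A mean value of at least 50 left 281 genes higher and 6 lower, with 0 members, and so 0 cadherins, 0 protocadherins outside the clusters and 0 of the Fat, Dachsous and *Celsr* group. Without a variance trend 174 genes were higher and 7 lower, with 1 member, 1 cadherin and 0 in the other 2 groups. Quantile normalization gave 25 genes lower and 1 cadherin higher, DESeq2 gave 6 genes lower and 1 cadherin higher, edgeR gave 3 cadherins, and no fold threshold gave 831 genes higher, 197 lower and 3 protocadherins outside the clusters. Leaving out 1 library gave between 168 and 546 genes higher, 4 to 13 lower, 0 to 7 members, 0 to 2 cadherins, 0 to 4 protocadherins outside the clusters and 0 to 1 of the Fat, Dachsous and *Celsr* group. The low ends came without *S100A4*−/− library 1 (0 members, 168 genes) and library 2 (1 member, 210 genes), and 7 members came without WT library 1. The causes were not tested. Clustered protocadherins stayed at 0 and members lower at 0 throughout.

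With the replicate number as a block, 576 genes were higher, 15 lower and 6 members higher, with 3 protocadherins outside the clusters, since *Pcdh9* joined (adjusted p = 0.0428). Deviations of same-numbered libraries correlated at 0.0119 over 2 pairs. So few pairs cannot show whether same-numbered pools share more than a number.

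Of 408 values for 27 named members and *S100a4*, 381 kept direction and call. Most of the named members were not called, and for these that means staying uncalled. A call was lost in 16 values, all of them of the 5 called members, and gained in 3. Signs turned near 0 for 4 members on the log2 scale. *Celsr1* went to 0.0223 with equal totals and 0.0403 with quantile normalization, and ran from −0.0149 to 0.00125 with 1 library left out. *Pcdh18* went to −0.00108 with quantile normalization, and ran from −0.0977 to 0.148 with 1 library left out. The same range was −0.0530 to 0.157 for *Pcdh19* and −0.0436 to 0.0860 for the γ entry *Pcdhgc4*.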

Other observations

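Relatives of the cadherins outside the choice included 2 genes that were higher in *S100A4*−/− lenses, out of 9 analysed, beside 3.65% of all genes. *Cdhr1*, a photoreceptor cadherin of the outer segment base, had normalized values of 403 and 381 in *S100A4*−/− and of 91.9 and 78.8 in WT, a log2 fold change of 2.19 (SE 0.15, limma adjusted p = 3.63e-14). *Dsg2*, a desmosomal cadherin, had 71.9 and 86.1 against 31.3 and 17.5, a log2 fold change of 1.70 (SE 0.32, adjusted p = 0.000229). Its desmosomal partner *Dsc2* had 729 and 672 against 847 and 910, a log2 fold change of −0.33 that passed the adjusted p in limma (0.00736) but not in DESeq2 (0.0689), and not 2-fold. *Dsg1a* had 16.3 and 29.4 against 5.22 and 5.47 (log2 fold change 1.85, adjusted p = 0.0576 in limma, 0.185 in DESeq2 and 0.0480 in edgeR). The calsyntenins, which carry cargo in neurons, were near WT, with log2 fold changes of 0.11 for *Clstn1*, −0.01 for *Clstn2* and −0.21 for *Clstn3*, and *Ret*, a receptor kinase with cadherin domains, had one of 0.39 (adjusted p = 0.313).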
